A study of Mus musculus with 12 samples.

Results

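The 10 integrin subunits expressed by aortic smooth muscle cells (SMCs) described here are *Itga1*, *Itga3*, *Itga5*, *Itga7*, *Itga8*, *Itga9*, *Itgav*, *Itgb1*, *Itgb3* and *Itgb5*. Their rows were found by matching the Ensembl identifiers of the count matrix to these symbols, which gave 10 of 52636 genes in the file and 10 of the 26 integrin genes. The data were 12 bulk RNA-seq libraries of GFP-positive SMCs sorted from aortic segments of 12-week-old C57BL/6J mice. GFPiSMC controls carried the tamoxifen-inducible, SMC-specific *Myh11-CreERT2* transgene and the *mT/mG* reporter, and Tgfbr1/2iSMCKO mice additionally carried floxed *Tgfbr1* and *Tgfbr2* alleles, which encode the type I and type II TGF-β receptors. Both genotypes received tamoxifen for 5 days, which the labels give as 1 mg/d at 4 weeks or 2 mg/d at 11 weeks of age without saying which applied to which library. The authors' paper places these cells 1 week after receptor disruption in 12-week-old mice. Its methods start 2 mg/d at 11 weeks and keep 1 mg/d for mice induced at 4 weeks. The ascending aorta with the arch and the descending thoracic aorta were each sequenced in 3 replicates of either genotype, which makes 4 groups of 3 libraries. The controls had no floxed alleles, so deletion and mouse line cannot be told apart, and the gate held only cells in which Cre had recombined the reporter. Libraries of 1 genotype with the same number are taken here as segments of 1 animal, which the labels do not state outright.

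Integrins are heterodimeric membrane receptors in which an α and a β chain together bind extracellular matrix (ECM) and couple it to the actin cytoskeleton. The β1 chain pairs with many α chains, and the α chain largely sets the ligand: α1 binds collagens, α3 and α7 bind laminins, α5, α8 and αv bind proteins with an arginine-glycine-aspartate (RGD) motif, and α9 binds tenascin-C and osteopontin. The αv chain also pairs with β3 and β5, and αv integrins are known for binding vitronectin and the latent forms of TGF-β, whereas α8β1 is a receptor for nephronectin that is typical of contractile SMCs.

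Total counts ranged from 20467027 to 31392396 per library, from 9208 to 20000 sorted cells. *Tgfbr1* ranged from 196.0 to 292.4 CPM, the normalised read count relative to the effective size of the library, in GFPiSMC and from 197.6 to 295.3 in Tgfbr1/2iSMCKO libraries, and *Tgfbr2* from 88.9 to 127.7 and from 68.2 to 102.0 CPM. Gene-level counts do not separate deleted from intact exons, so neither range checks the deletion. SMC markers were abundant throughout (5 genes summing to 32640 to 46610 CPM), with *Myh11* between 2275 and 3931 CPM in the 12 libraries. Summed markers of other cells overlapped between genotypes: 5 fibroblast genes came to 22.5 to 140.4 CPM in GFPiSMC and 11.5 to 218.1 in Tgfbr1/2iSMCKO libraries, 5 endothelial genes to 66.6 to 100.2 and 51.6 to 106.0, 5 leukocyte genes to 3.47 to 8.40 and 5.88 to 9.12, and 2 glial genes to 1.51 to 4.86 and 3.0 to 4.32. The defining leukocyte gene *Adgre1* and the glial gene *Sox10* were at 0 in some libraries of both genotypes, and the endothelial gene *Cdh5* was called higher in Tgfbr1/2iSMCKO cells (log2 fold change 2.97, SE 0.70, adjusted p = 0.025 by edgeR) at no more than 2.71 CPM. *Pecam1* made up most of the endothelial sum (log2 fold change -0.13). The median over the 5 endothelial genes was 1.2. *Vwf* had 1.53 to 3.78 CPM in GFPiSMC and 2.90 to 12.7 CPM in Tgfbr1/2iSMCKO libraries (log2 fold change 1.2, SE 0.38, adjusted p = 0.102 by edgeR). *Tek* was at 1.42 (SE 1.06) and *Egfl7* at 0.79 (SE 0.37). Thus 1 of 5 was called higher, beside 1.8% of all genes tested. Of the 5 fibroblast genes, 0 were called (median log2 fold change 0.24), beside 3.23% of genes lower and 1.8% higher. In the ascending aorta *Dpt* had 0.33 to 1.03 CPM in GFPiSMC and 2.06 to 4.46 CPM in Tgfbr1/2iSMCKO libraries. *Pdgfra* too was above every control there, whereas *Dcn*, *Lum* and *Pi16* overlapped. The share of all genes with such an order within a segment was not computed. The part of these genes in the values below was not tested. Both libraries of Tgfbr1/2iSMCKO replicate 3 lay apart on the principal component with most variance (28.3%). They were at 57.6 and 62.5 against -49.1 to 30.0 for the other libraries. Some of the results that rest on them are given without them as well. In bulk RNA, fewer cells of a kind and less RNA per cell cannot be told apart.

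Levels of different subunits were compared per kilobase (kb) of annotated exon. *Itga8* was the most abundant chain, at a mean over 12 libraries of 617.5 CPM per kb, followed by *Itgb1* at 429.2. The remaining chains were at least several-fold lower. *Itgb5* had 60.5 CPM per kb, *Itga9* 48.3, *Itga5* 44.3 and *Itga1* 21.5, and *Itgb3*, *Itga3* and *Itga7* had 14.7, 14.3 and 10.4. *Itgav* was last at 3.43 CPM per kb. The order of *Itgb3*, *Itga3* and *Itga7* depends on the gene length taken. Merged exons of *Itga7* cover 8092 bases against 4020 in its longest transcript, whereas *Itgb3* has 5901 against 5784. For *Itga1* the lengths are 18599 and 10967 bases. Within GFPiSMC, *Itga8* (698.2 ± 63.4 SD, n = 6 libraries of 3 animals) and *Itgb1* (499.4 ± 28.2) stood apart from each other and from the rest, whereas *Itga9* (51.1 ± 13) and *Itga5* (51.6 ± 22.3) did not differ beyond their spread, and neither did *Itgb3* (19.1 ± 3.63) and *Itga3* (15.3 ± 8.73). Among the α chains that can pair with β1, *Itga8* alone made up 81.8% ± 3.13 of the summed CPM per kb in GFPiSMC and 80.3% ± 1.61 in Tgfbr1/2iSMCKO libraries, and the ranges overlapped.

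**Figure D1:**
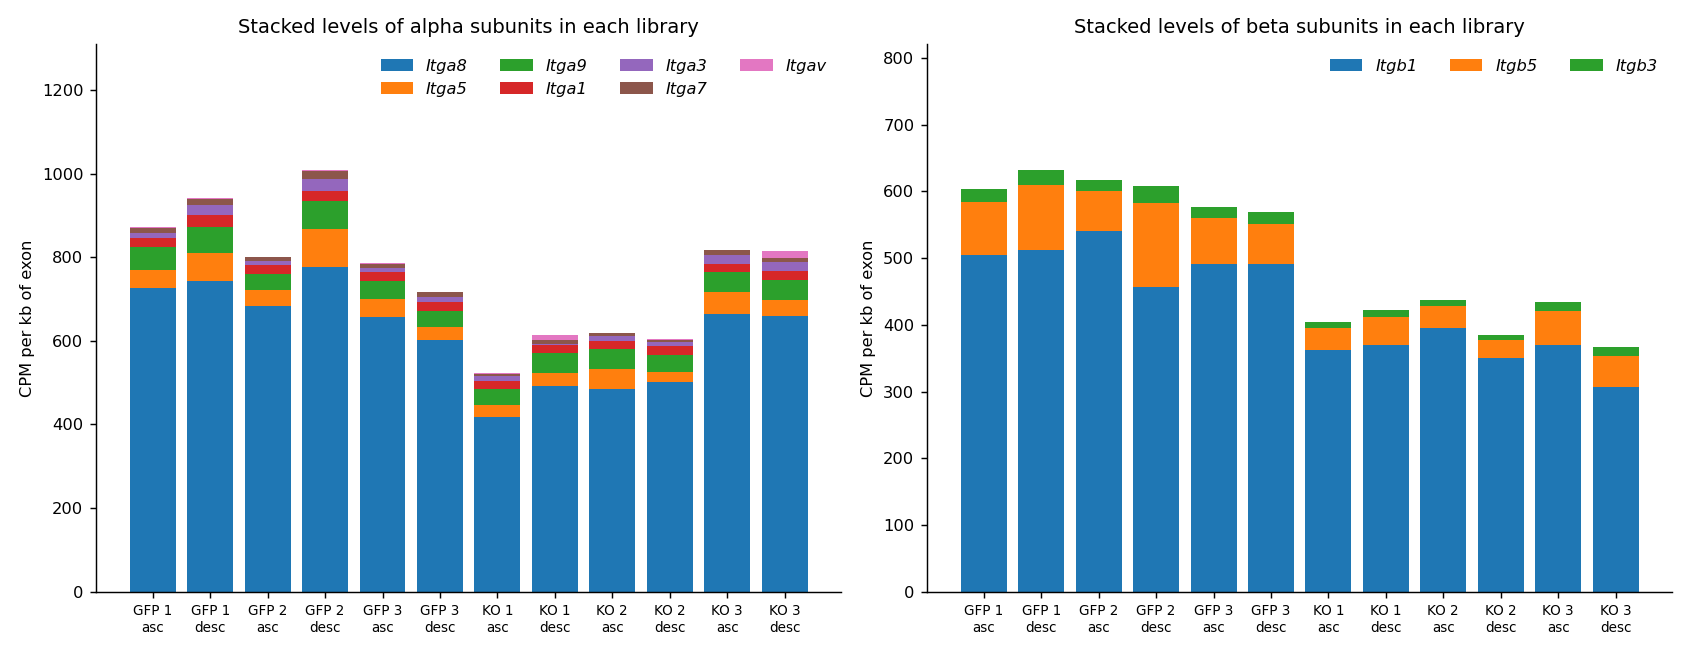
Stacked levels, in CPM per kb of exon, of the 7 α chains (left) and 3 β chains (right) in each of the 12 libraries, labelled by genotype (GFP, GFPiSMC; KO, Tgfbr1/2iSMCKO), replicate and segment (asc, ascending aorta with arch; desc, descending). *Itga8* and *Itgb1* fill most of every bar, and the β stacks of all 6 Tgfbr1/2iSMCKO libraries are shorter than those of all 6 GFPiSMC libraries.

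All 3 β chains were lower in Tgfbr1/2iSMCKO SMCs when the genotypes were compared over 12 libraries with segment as a covariate. No α chain passed this edgeR test. DESeq2 on the same libraries called *Itga1* and *Itga7* lower as well, 5 of 10 subunits beside 1139 of 22320 genes, so the line between α and β chains depended on the tool. *Itgb1* was reduced to 0.718 of its control level, *Itgb3* to 0.545 and *Itgb5* to 0.477. Thus 3 of 10 subunits were called lower at an adjusted p under 0.05, beside 3.23% of all 22320 genes tested, and 0 were called higher, beside 1.8% (edgeR quasi-likelihood test; no subunit was called higher by DESeq2 either). The median log2 fold change of the 10 subunits was -0.43, against 0.04 over all genes, and an unadjusted p under 0.05 was found for 6 subunits, beside 16.1% of all genes. *Itgb5* was the only subunit that was both called and past 2-fold, a call made for 1.64% of genes in the lower and 1.03% in the higher direction. The test over 12 libraries counts both segments of an animal as separate. With counts summed per animal (3 against 3), 0 of 10 subunits passed, beside 1.25% of genes lower and 0.606% higher, with 5 of 10 at an unadjusted p under 0.05 (11.6% of all genes) and the log2 fold changes of the β chains at -0.47, -0.87 and -1.07. Scaling by library size alone moved the median of all genes from 0.04 to 0.16 and turned the balance of calls from 721 lower and 402 higher to 505 lower and 699 higher, and the same 3 β chains were called lower under it.

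*Itgb1* (chromosome 8, 128685654 to 128733200, GRCm38, plus strand), the common β chain, had 2061, 2209 and 2005 CPM in the GFPiSMC ascending libraries (replicates 1 to 3) and 2091, 1861 and 2002 in the descending ones. In Tgfbr1/2iSMCKO it had 1481, 1614 and 1511 CPM in the ascending and 1507, 1428 and 1250 in the descending libraries. Every Tgfbr1/2iSMCKO library was below every GFPiSMC library. Over 12 libraries *Itgb1* stood at -0.48 on the log2 fold scale (SE 0.07, adjusted p = 0.0015 by edgeR). It stayed between -0.50 and -0.45 and past the threshold when any animal was left out, and summed per animal it was -0.47 with an adjusted p of 0.0516 by edgeR.

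*Itgb3* (chromosome 11, 104608000 to 104670476, plus strand), whose product joins αv and, in platelets, αIIb, had 110.5, 93.0 and 94.2 CPM in GFPiSMC ascending and 132.0, 145.1 and 101.0 in GFPiSMC descending libraries. The Tgfbr1/2iSMCKO values were 53.8, 47.2 and 77.6 CPM in ascending and 59.7, 47.1 and 80.3 CPM in descending libraries. All 6 lay under the lowest control, and both libraries of replicate 3 were the highest of their genotype. For *Itgb3* this came to -0.88 on the log2 fold scale (SE 0.17, adjusted p = 0.00684 by edgeR). The call was lost without GFPiSMC replicate 1 (adjusted p = 0.0729 by edgeR) or without Tgfbr1/2iSMCKO replicate 1 (adjusted p = 0.0692), with log2 fold changes of -0.82 in both fits.

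*Itgb5* (chromosome 16, 33829665 to 33949338, plus strand), whose product pairs with αv as a vitronectin receptor, had 282.1, 213.1 and 245.5 CPM in GFPiSMC ascending and 344.0, 450.4 and 218.0 in GFPiSMC descending libraries. In Tgfbr1/2iSMCKO it had 114.6, 118.6 and 179.3 CPM in ascending and 151.6, 96.6 and 164.6 in descending libraries, again with no overlap between genotypes. *Itgb5* thereby stood at -1.07 on the log2 fold scale (SE 0.20, adjusted p = 0.00609 by edgeR). Leaving out GFPiSMC replicate 1 or Tgfbr1/2iSMCKO replicate 1 ended the call here too (adjusted p = 0.0563 and 0.0568), with log2 fold changes of -1.02 and -1.04. Complete separation of the genotypes, with all 6 Tgfbr1/2iSMCKO libraries below all 6 controls, was seen for 4 of 10 subunits (the 3 β chains and *Itga1*), beside 2.89% of all genes tested, and separation in the opposite direction for 0 of 10, beside 1.51%.

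**Figure D2:**
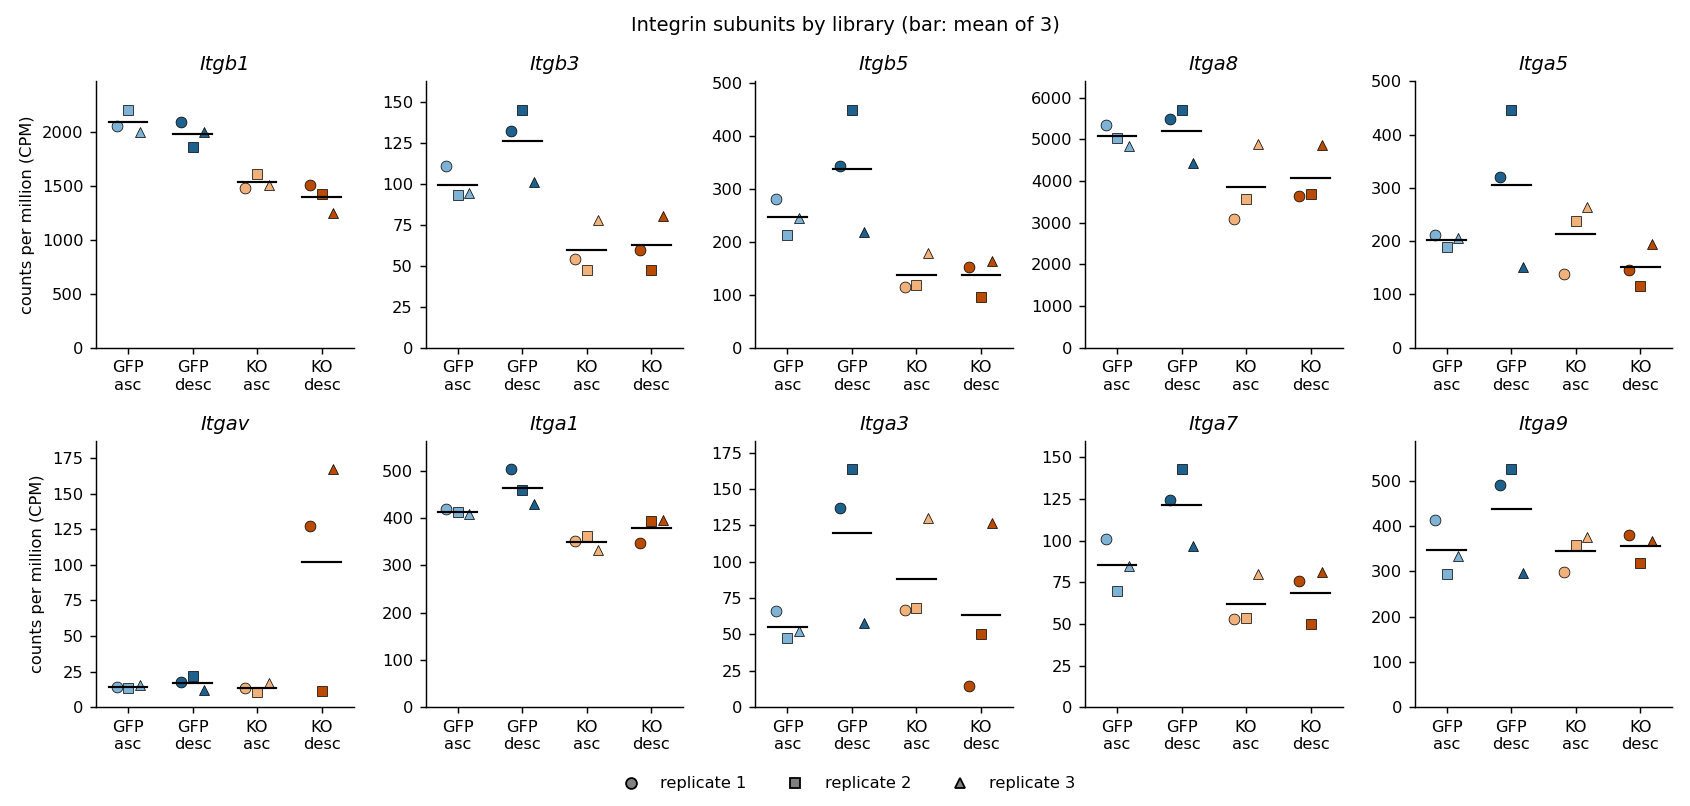
CPM of each integrin subunit in the 12 libraries, by genotype (GFP, GFPiSMC; KO, Tgfbr1/2iSMCKO) and segment (asc, ascending aorta with arch; desc, descending), with a symbol for each replicate number and a bar at the mean of 3 libraries. The 3 β chains and *Itga1* do not overlap between genotypes, *Itga8* overlaps through Tgfbr1/2iSMCKO replicate 3, and *Itgav* is high in 2 descending Tgfbr1/2iSMCKO libraries.

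The bases just upstream of the starts of both β genes that were lower and had an entry in the table, and of *Itga8* as the most abundant subunit, are shown to place the genes beside the letters of motifs bound by factors active in SMCs. Sequences are from RefSeq on GRCm38.p6, run 5′ to 3′ on the gene's own strand, cover 250 bases before the start and lie at chr2:12301945-12302194 (minus strand), chr8:128685404-128685653 (plus) and chr16:33829415-33829664 (plus). Capitals mark matches, on either strand, to CAGAC (a core of Smad binding sites), GGGCGG (an Sp1 box) and GGAATG (a TEAD site).
Itga8: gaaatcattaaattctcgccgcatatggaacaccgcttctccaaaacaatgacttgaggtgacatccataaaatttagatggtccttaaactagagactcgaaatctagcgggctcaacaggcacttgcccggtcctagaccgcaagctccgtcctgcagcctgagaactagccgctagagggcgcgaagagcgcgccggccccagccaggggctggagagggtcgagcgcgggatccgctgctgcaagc
Itgb1: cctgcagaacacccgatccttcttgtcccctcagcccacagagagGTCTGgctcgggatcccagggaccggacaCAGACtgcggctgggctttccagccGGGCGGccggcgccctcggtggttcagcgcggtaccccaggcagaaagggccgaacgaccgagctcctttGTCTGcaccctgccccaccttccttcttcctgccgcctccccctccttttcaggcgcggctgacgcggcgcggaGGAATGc
Itgb5: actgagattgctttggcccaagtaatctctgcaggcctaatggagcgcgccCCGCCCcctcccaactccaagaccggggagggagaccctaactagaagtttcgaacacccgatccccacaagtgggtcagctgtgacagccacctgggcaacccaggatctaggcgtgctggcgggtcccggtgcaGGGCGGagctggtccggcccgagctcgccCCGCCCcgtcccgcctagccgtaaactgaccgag

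The *Itgb1* window held 3 matches to CAGAC, 1 to GGGCGG and 1 to GGAATG, the last of them 7 bases before the start. The *Itgb5* window held 3 matches to GGGCGG and none to the other motifs, and the *Itga8* window held none. Of the 32851 windows in the table, 42.2% had CAGAC, 32.7% GGGCGG, 12.6% GGAATG and 1.47% the CArG box of serum response factor. Among the 8 subunits with a window, 3 had CAGAC, 4 had GGGCGG, 1 had GGAATG and 0 had a CArG box. *Itga7* and *Itgb3* had no entry. The motifs were chosen after the expression values were known, a match is a run of letters and not a shown binding site, and the counts do not bear on what a factor does at these genes.

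Of the RGD-binding α chains, none passed the test, and their libraries behaved differently from each other. *Itga8* (chromosome 2, 12106632 to 12301922, minus strand) had 5357, 5036 and 4843 CPM in GFPiSMC ascending and 5481, 5715 and 4433 in GFPiSMC descending libraries. In Tgfbr1/2iSMCKO, replicates 1 and 2 had 3079 and 3579 CPM in the ascending and 3631 and 3699 in the descending libraries, and replicate 3 had 4888 and 4853. The 4 libraries of replicates 1 and 2 lay below every control, whereas both of replicate 3 lay within the control range. Over 12 libraries the estimated log2 difference was -0.38 (SE 0.12, adjusted p = 0.0951 by edgeR). Without Tgfbr1/2iSMCKO replicate 3 it was -0.57 and past the threshold (adjusted p = 0.00195 by edgeR), whereas leaving out any other animal gave adjusted p-values of 0.127 to 0.367.

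An annotated antisense gene, E030013I19Rik (chromosome 2, 12300946 to 12312315, plus strand), starts within *Itga8* and shares 372 exon bases with it, 5.05% of the *Itga8* exons. It had 1135 to 1300 CPM in GFPiSMC and 485.3 to 769.2 CPM in Tgfbr1/2iSMCKO libraries, without overlap, and was lower in the edgeR test (log2 fold change -0.85, SE 0.11, adjusted p = 0.000402). This gene is no integrin and was looked at because of the overlap. The sources used here do not state whether the counting used strand, so reads of the shared bases could belong to either gene. Counts assigned to the antisense gene were between 0.137 and 0.293 of those assigned to *Itga8*. In Tgfbr1/2iSMCKO replicate 3, where *Itga8* was within the control range, the antisense gene was not, at 670.3 and 769.2 CPM.

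*Itga5* (chromosome 15, 103344286 to 103366763, minus strand), the α chain of the fibronectin receptor, had 212.1, 189.4 and 206.5 CPM in GFPiSMC ascending and 320.8, 447.2 and 150.9 in GFPiSMC descending libraries. The Tgfbr1/2iSMCKO values were 137.4, 237.0 and 264.1 CPM in the ascending and 145.4, 115.0 and 193.8 CPM in the descending libraries. The groups overlapped in both segments, and the widest spread was among the descending controls. Over 12 libraries it stood at -0.47 on the log2 fold scale (SE 0.28, adjusted p = 0.482 by edgeR).

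*Itgav* (chromosome 2, 83724397 to 83806916, plus strand), the α chain shared by the β3 and β5 receptors, had 14.0, 13.5 and 15.9 CPM in GFPiSMC ascending, 18.0, 21.9 and 11.9 in GFPiSMC descending and 13.2, 10.3 and 16.7 in Tgfbr1/2iSMCKO ascending libraries. In the Tgfbr1/2iSMCKO descending libraries it had 127.6, 11.5 and 167.3 CPM. Replicates 1 and 3 were thus at least 5.83 times the highest of the other 10 libraries, and replicate 2 was in their range. Among all 22320 genes tested, *Itgav* was the only 1 with both of these libraries over 5 times the highest of the other 10, a search made after its values were seen. Over 12 libraries *Itgav* stood at 1.24 on the log2 fold scale (SE 0.62, adjusted p = 0.363 by edgeR), and without these 2 libraries, an alternative also chosen afterwards, it was -0.26 (SE 0.25, adjusted p = 0.882). An annotated transcript on the opposite strand, Gm13684, shares 634 exon bases with *Itgav* (5.9% of its exons) and had 8 to 53 counts, against 213 to 4961 for *Itgav*.

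*Itga1* (chromosome 13, 114953096 to 115101964, minus strand), the α chain of a collagen receptor, was lower by a small amount in every Tgfbr1/2iSMCKO library. It had 417.8, 413.2 and 407.3 CPM in GFPiSMC ascending and 502.9, 457.9 and 428.6 in GFPiSMC descending libraries. In Tgfbr1/2iSMCKO it had 352.1, 360.8 and 331.2 CPM in ascending and 346.7, 393.3 and 395.0 in descending libraries, all below the lowest control. The estimated log2 difference was -0.27 (SE 0.08, adjusted p = 0.0733 by edgeR, 0.00978 by DESeq2), so the edgeR call was missed and the DESeq2 call made. A gene on the same strand, Gm49395, shares 685 of its exon bases and had 106 to 284 counts.

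Neither laminin-binding α chain passed the edgeR test. *Itga7* (chromosome 10, 128933818 to 128958282, plus strand), a laminin receptor chain typical of muscle, had 101.1, 69.6 and 84.5 CPM in GFPiSMC ascending and 124.6, 142.9 and 97.0 in GFPiSMC descending libraries. The Tgfbr1/2iSMCKO values were 52.9, 53.8 and 79.8 CPM in ascending and 75.7, 49.9 and 80.9 CPM in descending libraries. The descending groups did not overlap, whereas replicate 3 overlapped the controls in the ascending aorta. For *Itga7* the log2 fold change was -0.64 (SE 0.17, adjusted p = 0.0539 by edgeR). It passed the threshold by DESeq2 (adjusted p = 0.0133), when only genes averaging 50 or more counts were tested (0.0136 by edgeR) and without Tgfbr1/2iSMCKO replicate 3 (0.0179 by edgeR).

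*Itga3* (chromosome 11, 95044474 to 95076801, minus strand), whose product binds laminins of basement membranes, had the widest relative range of the α chains other than *Itgav*. It had 66.0, 47.5 and 52.4 CPM in GFPiSMC ascending, 137.1, 163.6 and 58.1 in GFPiSMC descending, 66.7, 68.3 and 129.7 in Tgfbr1/2iSMCKO ascending and 14.2, 50.1 and 126.6 in Tgfbr1/2iSMCKO descending libraries. In the ascending aorta all 3 Tgfbr1/2iSMCKO libraries were above the controls, the nearest by under 1 CPM, and in the descending aorta the groups overlapped. The share of all genes with such an order within a segment was not computed. Its log2 fold change over 12 libraries was -0.12 (SE 0.48, adjusted p = 0.952 by edgeR), and its sign turned when library size alone was used for scaling (0.01). *Itga9* (chromosome 9, 118606690 to 118901003, plus strand), the tenascin-C receptor chain, had 414.0, 295.3 and 333.9 CPM in GFPiSMC ascending and 490.9, 525.8 and 297.2 in GFPiSMC descending libraries. Its Tgfbr1/2iSMCKO values, 299.3, 358.8 and 375.2 CPM in ascending and 379.8, 319.1 and 367.8 CPM in descending libraries, lay within that range (log2 fold change -0.16, SE 0.15, adjusted p = 0.716 by edgeR).

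Within segments, the 3 libraries of a group are 3 animals, and the spread was estimated over all 12 libraries. The β chains kept the same sign there, and fewer calls were made. In the ascending aorta 0 of 10 subunits were called, beside 1.41% of genes tested, with 4 of 10 at an unadjusted p under 0.05 (11.4% of all genes) and 1, *Itgb1*, called by DESeq2, beside 4.07% of genes by that tool. The log2 fold changes there were -0.45 for *Itgb1* (SE 0.11, adjusted p = 0.0746 by edgeR), -0.74 for *Itgb3* (SE 0.24, adjusted p = 0.216) and -0.84 for *Itgb5* (SE 0.28, adjusted p = 0.229). In the descending aorta 2 of 10 were called, both lower, beside 1.72% of genes (7 of 10 at an unadjusted p under 0.05, against 10.7% of all genes): *Itgb1* (-0.51, SE 0.11, adjusted p = 0.0373 by edgeR) and *Itgb5* (-1.29, SE 0.28, adjusted p = 0.041). *Itgb3* was at -1.02 (SE 0.24, adjusted p = 0.0615 by edgeR) and *Itgav* at 2.57 (SE 0.66, adjusted p = 0.0876). DESeq2 called 3 subunits lower there, the same 3 β chains, beside 2.48% of genes, and 1 higher, *Itgav* (adjusted p = 0.00189), beside 1.59%. *Itgav* was also past the threshold in edgeR with no filter beyond 1 count (adjusted p = 0.0364) and without Tgfbr1/2iSMCKO replicate 2 (0.000594), the descending library of its genotype with low *Itgav*. Without Tgfbr1/2iSMCKO replicate 3, edgeR called 0 subunits higher there. The *Itgav* log2 fold change in the descending aorta lay between 1.99 and 3.10 with 1 animal left out. The *Itgb1* call in the descending aorta was lost without any 1 of the 6 animals (adjusted p = 0.0578 to 0.185 by edgeR), and the *Itgb5* call without replicate 1 or 2 of either genotype (0.161 to 0.238). Scaling by library size alone (0.219 and 0.0549) and fitting the segment alone (0.301 and 0.133) ended both calls, and the fold changes kept their sign throughout.

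The genotype effect was not shown to differ between segments for any subunit. For the difference itself, 0 of 10 were called, beside 0% of genes tested (edgeR; 659 genes, or 2.95%, and 2 of the 10 subunits had an unadjusted p under 0.05, and DESeq2 called 8 genes, none of them a subunit). The 2 subunits were *Itgav*, whose effect was 2.67 log2 units higher in the descending aorta (SE 0.90, unadjusted p = 0.0116, adjusted p = 1 by edgeR), and *Itga5*, whose effect was -1.09 (SE 0.49, unadjusted p = 0.0452, adjusted p = 1). For *Itgb1* the difference was -0.06 (SE 0.15) and for *Itgb5* -0.45 (SE 0.40). Between the segments of GFPiSMC aortas, descending over ascending, 0 of 10 were called beside 0.376% of genes (0 also by DESeq2, beside 1.28%, and 0 at an unadjusted p under 0.05, beside 5.98%). In Tgfbr1/2iSMCKO aortas 0 of 10 were called beside 0.112% of genes, and 1, *Itgav*, had an unadjusted p under 0.05, as did 3.68% of genes (log2 difference 2.93, SE 0.67, adjusted p = 0.228 by edgeR) and was called by DESeq2 (adjusted p = 0.000803), beside 0.739% of genes.

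**Figure D3:**
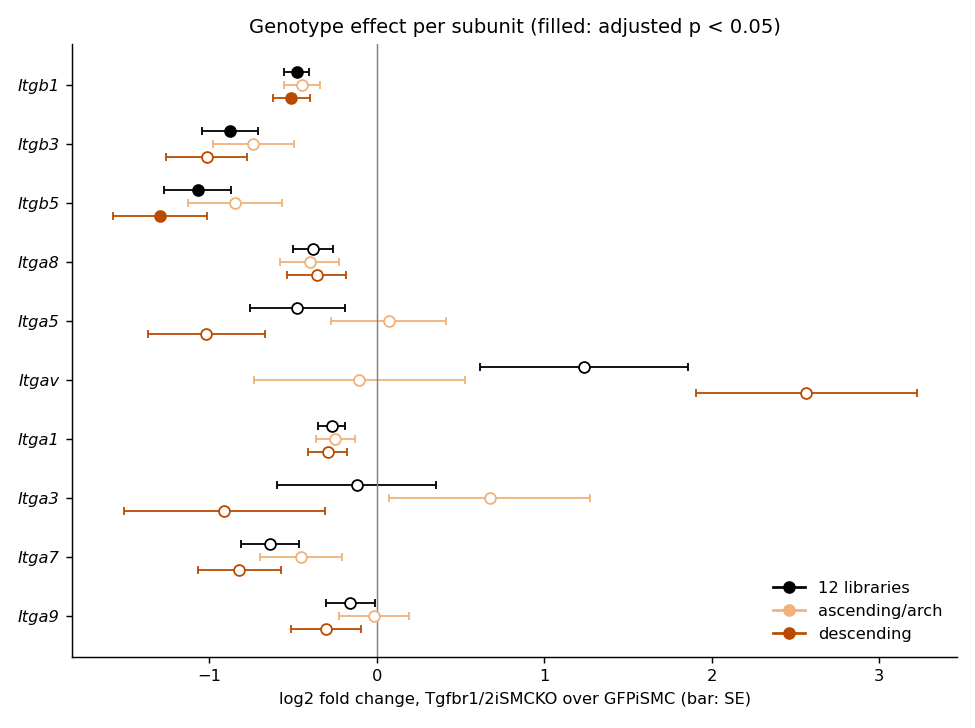
Log2 fold change (Tgfbr1/2iSMCKO over GFPiSMC) of each subunit over 12 libraries (black) and within the ascending aorta with arch (light orange) and the descending aorta (dark orange), with bars for the SE from edgeR and filled points for an adjusted p under 0.05. The filled points are the 3 β chains over 12 libraries and *Itgb1* and *Itgb5* in the descending aorta, and *Itgav* in the descending aorta lies farthest to the right at 2.57.

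Read as α-β pairs by ligand class, in CPM per kb, the shares of the described α subunits of each class among the β1 partners overlapped between genotypes. The pool also holds *Itga2*, *Itga4*, *Itga6*, *Itga10* and *Itga11*, which were put in no class. The class shares below therefore leave out chains such as *Itga10*, a collagen receptor chain with a mean of 1.51 CPM per kb. The RGD class (*Itga5*, *Itga8* and *Itgav*) took 87.8% ± 1.5 of the α pool in GFPiSMC and 86.5% ± 0.94 in Tgfbr1/2iSMCKO libraries. The collagen class (*Itga1*) took 2.77% ± 0.27 and 3.0% ± 0.54, the laminin class (*Itga3* and *Itga7*) 3.20% ± 0.98 and 3.12% ± 0.82, and the tenascin class (*Itga9*) 5.89% ± 0.81 and 6.92% ± 0.88. The ranges of the genotypes overlapped in all 4 classes. *Itgb1* over the summed α chains that can pair with it was 0.592 ± 0.087 in GFPiSMC and 0.555 ± 0.119 in Tgfbr1/2iSMCKO libraries, with the lowest values, 0.375 and 0.451, in Tgfbr1/2iSMCKO replicate 3. These are ratios of transcripts, and they carry no measure of assembled receptors. Shares of the collagen, laminin and tenascin classes were not recomputed with another gene length.

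Among the αv partners, *Itgb5* exceeded *Itgb3* by a factor of 4.24 ± 0.54 in GFPiSMC and 3.76 ± 0.37 in Tgfbr1/2iSMCKO libraries, with overlapping ranges. *Itgb1* over the sum of *Itgb3* and *Itgb5* was 5.27 ± 1.47 in GFPiSMC and 7.70 ± 2.02 in Tgfbr1/2iSMCKO, with ranges of 3.01 to 7.15 and 5.11 to 9.94 that overlapped. *Itgav* over the sum of *Itgb3* and *Itgb5* ranged from 0.0133 to 0.0174 in GFPiSMC libraries and from 0.0232 to 0.260 in Tgfbr1/2iSMCKO libraries, without overlap. In the 4 Tgfbr1/2iSMCKO libraries without high *Itgav* this ratio was 0.0232 to 0.0305. Its denominator holds 2 chains that were themselves lower and separated, and *Itgav* was at -0.26 on the log2 fold scale without the 2 high libraries, so in those 4 libraries the ratio restates the difference of the β chains. The SDs are over 6 libraries from 3 animals per genotype, and no test was made on these ratios.

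Of the other 16 integrin genes, 13 passed the filter on low counts. Of these, 0 were called in either direction over 12 libraries (edgeR, median log2 fold change -0.09), beside 3.23% of all genes lower and 1.8% higher. The 16 genes were sparse, summing to 23.6 to 81.9 CPM in GFPiSMC and 27.9 to 52.0 CPM in Tgfbr1/2iSMCKO libraries. *Itgad*, *Itgam* and *Itgb7*, chains of leukocyte integrins, had too few counts to be tested. *Itgb8*, a further partner of αv, *Itga4*, a β1 partner that binds fibronectin and VCAM-1, and *Itga10*, a collagen receptor chain, had the highest mean counts. *Itgb8* had 4.56 to 35.7 CPM in GFPiSMC and 6.5 to 14.5 in Tgfbr1/2iSMCKO libraries, and its difference (log2 fold change -0.76, SE 0.31, adjusted p = 0.222 by edgeR) passed the threshold when counts were summed per animal (-1.06, SE 0.21, adjusted p = 0.0472). Within segments it was the only 1 of the 13 that edgeR called, beside 1.41% of genes in the ascending and 1.72% in the descending aorta. In the ascending aorta *Itgb8* had 35.7, 34.8 and 34.0 CPM in GFPiSMC and 11.8, 14.5 and 10.6 CPM in Tgfbr1/2iSMCKO libraries (log2 fold change -1.50, SE 0.32, adjusted p = 0.0379 by edgeR, 0.000179 by DESeq2), with no overlap. This call was lost without any 1 of the 6 animals (0.0543 to 0.168 by edgeR), under the replicate block (0.0832) and with library size only (0.0548). The share of all genes without overlap within 1 segment was not computed, here or for *Itga10* below. In the descending aorta *Itgb8* had 11.3, 4.56 and 9.04 CPM in GFPiSMC and 6.5, 10.1 and 8.33 CPM in Tgfbr1/2iSMCKO libraries (0.01, SE 0.31, adjusted p = 1 by edgeR). It was lower in descending than in ascending GFPiSMC libraries (log2 difference -2.07, SE 0.32, adjusted p = 0.0157 by edgeR), a call lost without any 1 GFPiSMC animal (0.121 to 0.154). Its genotype effect was 1.51 log2 units higher in the descending aorta, which was not called as a difference (SE 0.44, unadjusted p = 0.005, adjusted p = 1 by edgeR). *Itga4* was at 0.14 (SE 0.28, adjusted p = 0.903 by edgeR) and *Itga10* at 0.60 (SE 0.47, adjusted p = 0.64). *Itga10* differed in sign between segments, at -0.54 in the ascending aorta (SE 0.45, adjusted p = 0.74 by edgeR) and 1.78 in the descending aorta (SE 0.47, adjusted p = 0.0933 by edgeR, 0.00563 by DESeq2). The descending libraries had 1.57, 3.29 and 2.17 CPM in GFPiSMC and 7.29, 9.40 and 7.56 CPM in Tgfbr1/2iSMCKO, without overlap, and the difference of the effects was 2.32 (SE 0.64, unadjusted p = 0.00353, adjusted p = 1 by edgeR).

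Ligands and cytoplasmic linkers of these receptors were read from lists chosen with earlier results of these data known, so their direction is not independent evidence. Of 8 collagen genes, 7 were lower and 0 higher, beside 3.23% and 1.8% of all genes (median log2 fold change -1.29, against 0.04 over all genes), and 6 were lower with counts summed per animal, beside 1.25%. *Col3a1* was lower by the most (-2.32, SE 0.08, adjusted p = 1.5e-09 by edgeR), followed by *Col1a2* (-1.72), *Col4a2* (-1.56) and *Col1a1* (-1.44). Of 7 laminin genes, 0 were called, beside the same shares of all genes over 12 libraries (median -0.17). Of 13 RGD ligands, 5 were lower and 0 higher, beside the same shares of all genes (median -0.55), and 4 with counts summed per animal. *Fbln5*, a fibulin of elastic fibres, was at -2.51 (SE 0.19, adjusted p = 3.4e-06 by edgeR), *Fn1* (fibronectin) at -1.70 (SE 0.36, adjusted p = 0.0137), *Tnc* (tenascin-C) at -1.19 (SE 0.15, adjusted p = 0.000324) and *Fbn1* (fibrillin-1) at -0.55 (SE 0.12, adjusted p = 0.0179, and 0.203 with counts summed per animal).

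*Npnt* (nephronectin), the ligand known for α8β1, had 537.0 to 956.6 CPM in GFPiSMC and 250.7 to 475.3 CPM in Tgfbr1/2iSMCKO libraries, with no overlap (log2 fold change -1.07, SE 0.21, adjusted p = 0.0077 by edgeR). *Vtn* (vitronectin) was at no more than 1.90 CPM in any library (-0.10, SE 0.50, adjusted p = 0.964 by edgeR), and *Spp1* (osteopontin) at no more than 7.62 CPM (-1.08, SE 0.85, adjusted p = 0.643). Of 4 ligands of α9, 1 was lower, *Tnc* (median -0.82), beside 3.23% of all genes. It was also lower with counts summed per animal, beside 1.25%. Of 22 linkers between integrins and actin, 1 was lower and 0 higher (median -0.19), a share near the 3.23% of all genes called lower. This was *Vcl*, vinculin (-0.47, SE 0.10, adjusted p = 0.0164 by edgeR). Its ranges, 825.6 to 960.2 CPM in GFPiSMC and 539.6 to 834.7 in Tgfbr1/2iSMCKO libraries, overlapped. The *Vcl* call was lost when counts were summed per animal and when scaling used library size alone. Below every control in all Tgfbr1/2iSMCKO libraries, but not called, were *Actn1* (572.9 to 1114 CPM in GFPiSMC, 129.5 to 491.1 in Tgfbr1/2iSMCKO) and *Fermt2* (858.5 to 926.9 and 651.4 to 790.5). The other linkers overlapped between genotypes, and such separation was seen for 2.89% of all genes.

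**Figure D4:**
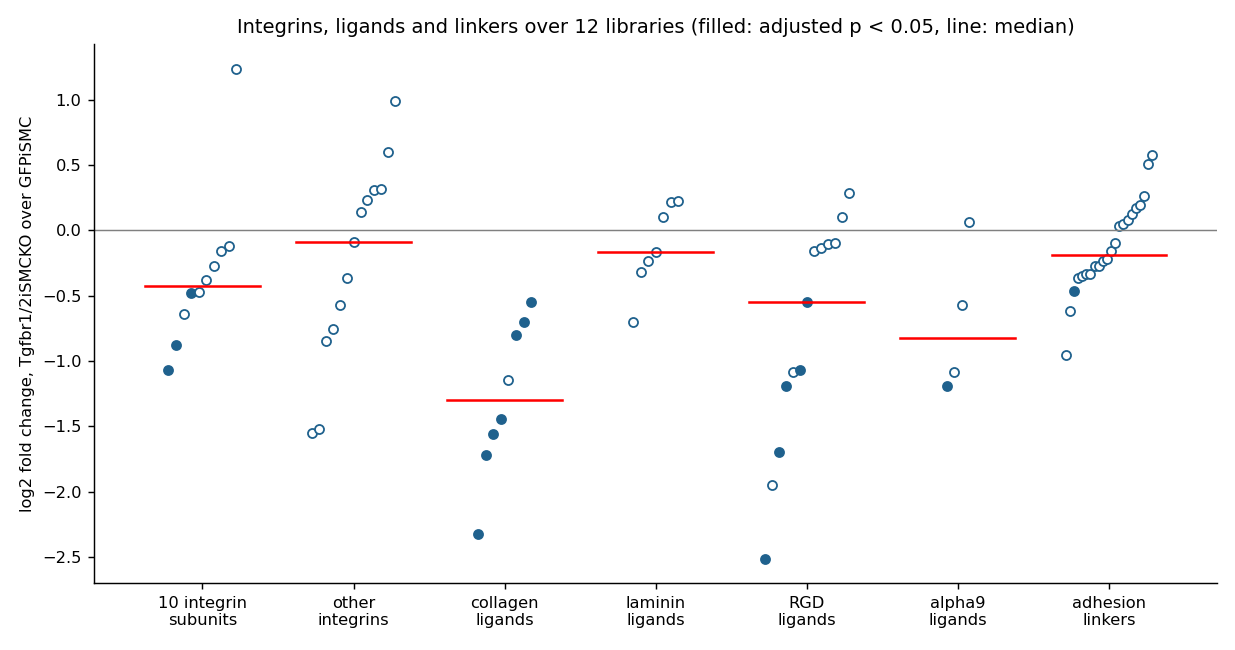
Log2 fold change over 12 libraries (Tgfbr1/2iSMCKO over GFPiSMC) of each tested gene in the lists of integrins, ligands and linkers, with filled points for an adjusted p under 0.05 by edgeR and a red line at the median of each list. All filled points are below 0, and they number 3 of 10 integrin subunits, 7 of 8 collagen ligands, 5 of 13 RGD ligands and 1 of 22 linkers.

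Over the 12 libraries, *Itgb1*, which had the smallest adjusted p of the subunits, was compared in log2 CPM with 11151 genes averaging 100 or more counts. The most alike were *Plod2* (Pearson r = 0.977), *Nupr1* (0.975), *Ctnnb1* (0.969), *Acbd3* (0.969) and *Col15a1* (0.962). These values describe libraries that share genotype, segment and animal, and are given with no test. Among the subunits themselves, *Itgb3* and *Itgb5* were the most alike (r = 0.975 over 12 libraries and 0.902 once group means were removed), followed by *Itga7* with *Itgb5* (0.955 and 0.956). *Itga8* with *Itgb3* had 0.904 and 0.864. *Itgb1* was unlike them within groups: its r with *Itgb3* was 0.679 over 12 libraries and -0.55 without group means, and with *Itga8* 0.556 and -0.40. The points share library, depth and scaling.

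**Figure D5:**
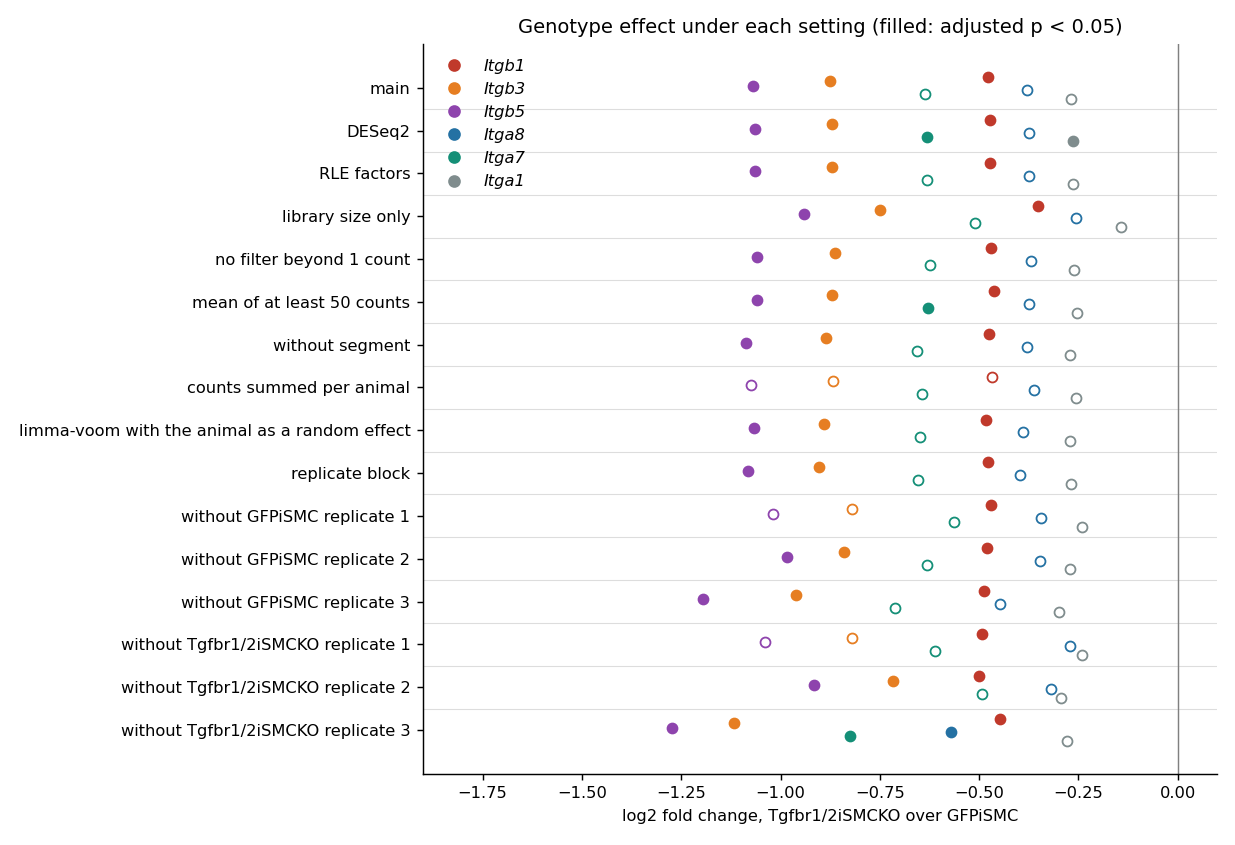
Log2 fold change (Tgfbr1/2iSMCKO over GFPiSMC) of 6 subunits in the reported fit (main, top) and under each alternative test, scaling, filter, replicate unit and left-out animal, with filled points for an adjusted p under 0.05. *Itgb1* is filled in every setting but the sum of counts per animal, and *Itga8* is filled only without Tgfbr1/2iSMCKO replicate 3, at -0.57.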

How the data were processed

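RNA of sorted GFP-positive SMCs was sequenced in 12 libraries (low-input cDNA kit). The authors deposited whole-number counts per gene for 52636 genes, made per their methods and processing notes with HISAT2 and StringTie on mm10 (their notes also name DESeq2). How strand was treated in counting is not given in the sources used here. Genes passing edgeR's filterByExpr (22320) were scaled by TMM and tested with edgeR 4.0.16 quasi-likelihood fits in R 4.3.3: segment plus genotype over 12 libraries, and 4 group means for effects within and between segments. P-values were adjusted by Benjamini-Hochberg over all genes tested. Alternatives used DESeq2 1.42.0, limma 3.58.1, other scaling and filters, and left-out animals. Exon lengths are from GENCODE M21 (GRCm38).

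Members and gene lists were chosen with earlier results of these data known. Named were all 10 subunits, *Tgfbr1* and *Tgfbr2*, called other integrins plus the 3 with the highest mean count, up to 4 called genes per ligand or linker list with the largest changes, *Npnt*, *Fn1*, *Vtn* and *Spp1*, and the 5 genes most correlated with *Itgb1*. *Fbn1* and *Cdh5* were added after their values were seen. Segments of 1 animal pair libraries, and their deviations correlated at r from -0.243 to 0.665 over 9523 genes. P-values over 12 libraries rest on the spread between libraries, 2 from each of 3 animals per genotype. Those within and between segments come from 4 group means fitted to all 12 libraries, which share 1 estimate of the spread. With counts summed per animal or a segment fitted alone, p-values rest on the spread between 3 animals per genotype. Every subunit had at least 213 counts in every library.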

Additional observations from a re-analysis of the deposited data

How the results depend on the processing

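Of 10 subunits, 5 were called lower over 12 libraries by DESeq2 and 0 with counts summed per animal, against 3, and 1 to 5 when 1 animal was left out (1 without replicate 1 of either genotype, 5 without Tgfbr1/2iSMCKO replicate 3). The members' median log2 fold change lay between -0.62 and -0.29 when 1 animal was left out. In the ascending aorta 1 was called by DESeq2 and 0 to 1 with 1 animal left out (1 without Tgfbr1/2iSMCKO replicate 3). In the descending aorta 4 were called by DESeq2 (3 lower and *Itgav* higher), 0 with library size only, 0 with the segment fitted alone and 0 to 2 with 1 animal left out (1, *Itgav* higher, without Tgfbr1/2iSMCKO replicate 2), and with no filter *Itgb5* was called lower and *Itgav* higher. Between segments of Tgfbr1/2iSMCKO 1 was called by DESeq2 and 0 to 1 with 1 animal left out (1 without replicate 2). Over all genes, DESeq2 called 1139 lower and 895 higher, summing per animal 304 and 147, library size only 699 higher, and leaving 1 animal out 410 to 687 lower and 196 to 381 higher. The cause of these moves was not tested, and the fits that leave 1 animal out also hold fewer samples. No subunit was called higher over 12 libraries in any setting.

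With the replicate number as a block, 3 subunits were again called over 12 libraries, the same 3, and 0 in the descending aorta. The same number across genotypes marks no shared animal, and deviations correlated at r from -0.517 to 0.219. For contrasts between segments and for the difference of the genotype effect, the block was instead the animal, which pairs its segments. The reported fits of those contrasts did not use this pairing. No other count of called subunits changed under the blocks. Between GFPiSMC segments, the animal block moved the number at an unadjusted p under 0.05 from 0 to 1 (*Itga7*).

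Signs turned for values far from the threshold. *Itga3* was at 0.008 with library size only and between -0.73 and 0.23 with 1 animal left out (positive without Tgfbr1/2iSMCKO replicate 1 or 2). *Itgav* was at -0.26 without its 2 high libraries. *Itga4* was at -0.002 without segment and between -0.18 and 0.32 with 1 animal left out. *Vtn* was at 0.025 with library size only and between -0.54 and 0.17 with 1 animal left out, and *Tgfbr1* between -0.002 and 0.20. The share of *Itga8* in the α pool, recomputed with the longest transcript as gene length (an alternative added after seeing the data, like the one without high *Itgav*), was 81.6% in GFPiSMC and 80.1% in Tgfbr1/2iSMCKO.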
